A study of Rattus norvegicus with 6 samples.

Results

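Of the 43350 gene rows of the rat dorsal root ganglion (DRG) table, 339 were named long non-coding RNA (lncRNA) rows. A row was taken when it carried a gene symbol, when its annotated type held lincRNA, lncRNA, antisense or processed_transcript without protein_coding, and when its FPKM, the fragment count scaled to row length and library total, averaged at least 0.5 over the 6 libraries. In all, 3172 rows met the conditions on symbol and type, of which 2833 lay under the FPKM limit and 1572 had no count in any library. Just outside the limit were Slc25a52, with a mean FPKM of 0.493, and a row named AABR07045431, with 0.494. Symbols can repeat, as the 339 rows carried 319 distinct symbols, and another row named AABR07045431 was a member. Just inside it were AABR07032393 (0.5004), AABR07004232 (0.505) and AABR07071739 (0.509). By annotated type, 256 members were lincRNA rows, counting rows of mixed type that include lincRNA, 26 were antisense rows and 57 were processed transcripts. In 40 members the mean FPKM of 1 group was under 0.5, so that they passed the limit through the other group. Among the called rows these were AABR07010620, AABR07044837, AABR07070704, AABR07005593, AABR07060862 and AABR07016578. All 6 passed through their level in CCI rats and were called higher, so their place among the members rests on the same CCI values as their calls.

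The rats were male Sprague-Dawley rats, 6 to 8 weeks old when acquired and kept for some weeks before surgery. CCI, or chronic constriction injury, a model of neuropathic pain, was made by loose ligatures around the sciatic nerve, which sham surgery exposed and left untied. Ganglia lumbar 4 to 6 of the operated side were taken at day 11 from 3 CCI rats and 3 sham rats that had shown the behaviour looked for in their group, and total RNA depleted of ribosomal RNA was sequenced. The methods state 1 rat per sample, whereas the labels speak of a pooled sample and give the sham rats no treatment. Total counts were 81131861, 80479671 and 75423546 in CCI 1, 2 and 3 and 87615743, 80046488 and 83695350 in sham 1, 2 and 3, and 3 counts, taken as the detection limit, equalled 0.0342 to 0.0394 CPM, the counts scaled to the effective library total. The tissue label was borne out by Tubb3, a neuronal tubulin, whose FPKM averaged 1248, and by the sensory neuron markers, of which all 10, Tubb3 included, were above the FPKM limit.

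The label of the rows held only in part. By symbol, 39 members matched a RefSeq gene, of which 8 were listed there as lncRNA, among them Tug1, Kantr and LOC103692984. Another 29 carried the symbol of a gene that RefSeq lists as protein-coding, 28 of them as processed transcripts, for example Snx3, Ivns1abp, Rc3h1, Trrap and Smg1. For 3 of these 29, namely Ivns1abp, Slc6a17 and Lrrc4c, a separate protein-coding row of the same symbol was also tested. For the others, such as Snx3, Smg1 and Trrap, no protein-coding row of that symbol was tested. A further 34 members were described as similar to another gene, and counts of such copies may be shared with the gene they resemble. The members are called named non-coding rows after their annotated type alone. No claim is made that each is a long non-coding RNA gene, or that rows with a coding symbol hold only non-coding RNA.

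Long non-coding RNAs are transcripts that are not translated into protein. Some stay in the nucleus, where they bind chromatin or splicing factors, some lie antisense to a gene, and others are the primary transcripts from which miRNAs or small nucleolar RNAs are cut. In sensory ganglia, tying the nerve switches on a growth and stress program in neurons and gathers macrophages around them, so that RNA from several cell types changes in the same tissue.

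Members that hold miRNAs were the row AABR07065531;Mir770;Mir673, among the most abundant, and the row Mir223;AABR07038983, which was called higher in CCI rats. The mature miRNAs of these rows are shown because they name the rows by sequence. They were not measured by the long RNA libraries. Coordinates are RefSeq's for build GRCr8, and capitals mark the seed, bases 2 to 8, which pairs with target RNAs. The miR-770 arms lie at chr6:134298094-134298115 and chr6:134298129-134298145 on the plus strand.
rno-miR-770-5p: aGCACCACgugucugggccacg
rno-miR-770-3p: gUGGGCCUgacguggag
The miR-673 arms lie at chr6:134306510-134306531 and chr6:134306550-134306571, also on the plus strand.
rno-miR-673-5p: cUCACAGCuccgguccuuggag
rno-miR-673-3p: uCCGGGACugaguucugugcac
The miR-223 arms lie at chrX:65151408-65151430 and chrX:65151450-65151470 on the plus strand.
rno-miR-223-5p: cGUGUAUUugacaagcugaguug
rno-miR-223-3p: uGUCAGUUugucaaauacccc
The 6 arms have 6 different seeds.

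In RefSeq's GRCr8 annotation Mir770 lies within Meg3, an imprinted non-coding RNA gene, and Mir673 starts 251 bases past the end of Meg3. The promoter of Meg3, from 250 bases before to 50 after its start, and that of LOC103692984, the called member with a RefSeq promoter, are shown with motif matches in capitals. The letters searched on both strands were TGACTCA, the AP-1 motif, TGACGTCA, the cyclic AMP response element, and TATAAA, the TATA box. The Meg3 promoter, chr6:134273806-134274105 on the plus strand of GRCr8, held the cyclic AMP response element and, on either strand, overlapping TATA letters.
Meg3 promoter: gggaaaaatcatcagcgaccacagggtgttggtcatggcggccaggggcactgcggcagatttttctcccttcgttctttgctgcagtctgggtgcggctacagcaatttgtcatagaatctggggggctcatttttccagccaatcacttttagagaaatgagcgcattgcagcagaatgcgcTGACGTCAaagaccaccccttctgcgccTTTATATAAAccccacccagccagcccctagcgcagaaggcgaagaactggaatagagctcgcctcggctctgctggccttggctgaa
The LOC103692984 promoter, chr7:134218078-134218377 on the minus strand of GRCr8, held none of the 3 motifs.
LOC103692984 promoter: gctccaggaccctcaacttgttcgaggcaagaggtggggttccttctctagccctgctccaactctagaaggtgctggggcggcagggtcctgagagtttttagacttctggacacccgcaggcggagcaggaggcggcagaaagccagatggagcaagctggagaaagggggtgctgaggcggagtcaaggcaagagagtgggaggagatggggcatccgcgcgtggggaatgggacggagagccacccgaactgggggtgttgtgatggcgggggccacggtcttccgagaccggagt
Of all 33469 RefSeq promoters of this length, 4.63% held TGACTCA, 1.83% held TGACGTCA and 14.2% held TATAAA. Among the 11 promoters of Meg3 and of the members that RefSeq lists as lncRNA, TGACTCA was in 1, of LOC108351520, TGACGTCA was in 1, of Meg3, and TATAAA was in 2, of Meg3 and LOC102549726.

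The named non-coding rows held 1.56%, 1.68% and 1.65% of all counts in CCI 1, 2 and 3 and 1.63%, 1.50% and 1.73% in sham 1, 2 and 3. The groups overlapped, and the CCI mean of 1.63% ± 0.0630 (SD, n = 3) and the sham mean of 1.62% ± 0.117 (SD, n = 3) gave p = 0.9 in a two-sided exact permutation test. With 3 rats against 3 the exact permutation test cannot go below p = 0.1. A single row, AC134224, took 47.9% to 55.1% of the members' counts in a library. Without it, a setting chosen after seeing the data, the members held 0.824% ± 0.0193 (SD, n = 3) of all counts in CCI rats and 0.801% ± 0.0371 (SD, n = 3) in sham rats, with p = 0.3 in the exact permutation test.

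AC134224, a lincRNA row without a description at chr1:221150508-221158792 on the minus strand, was the most abundant member. Coordinates of table rows are those of the genome that the authors call V101. Its FPKM was 868, 1008 and 929 in CCI 1, 2 and 3 and 908, 833 and 1108 in sham 1, 2 and 3, so that the groups overlapped. The log2 fold change, CCI over sham, was -0.04 ± 0.12 (SE). Members followed at a distance, with a median FPKM of 1.61, against 2.41 over all 26663 rows tested and 5.55 over rows of protein-coding type alone. Only 28 members had a mean FPKM of at least 10, and 114 were under 1.

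Of the next rows by level most carried the symbol or description of a protein-coding gene. Snx3, a processed transcript of a sorting nexin gene, had an FPKM of 84.6, 93.9 and 100 in CCI rats and 103, 98.9 and 95.8 in sham rats. The Ivns1abp row, at 46.0, 35.7 and 43.2 against 36.2, 33.9 and 38.1, ended 9 bases from the protein-coding Ivns1abp row, whose log2 fold change was 0.31 ± 0.11 (SE). In both Snx3 and Ivns1abp the groups overlapped. AC126641, whose description names the synaptic vesicle glycoprotein Sv2b, had an FPKM of 24.2, 27.4 and 26.6 in CCI rats and 29.0, 30.0 and 30.8 in sham rats. AABR07001382, described as the nuclear envelope gene Syne1, had 17.6, 18.3 and 17.7 against 19.6, 19.6 and 21.0. Each CCI library lay below each sham library in both rows, yet the log2 fold changes, -0.21 ± 0.06 and -0.18 ± 0.05 (SE), were under the limit of 0.58 for a call. AABR07039304;Rtl8a, AABR07019085 and Rc3h1 completed the 10 most abundant members, with mean FPKM values of 26.3, 18.4 and 16.4 and log2 fold changes of 0.10, -0.15 and 0.02.

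AABR07027407, a lincRNA row at chr17:28825009-28829441 and 145 kb from its nearest coding row, was lower in every CCI library. Its FPKM was 56.7, 60.2 and 61.9 in CCI 1, 2 and 3 and 68.7, 77.0 and 77.7 in sham 1, 2 and 3. The groups did not overlap, with a log2 fold change of -0.34 ± 0.08 (SE) and an edgeR quasi-likelihood adjusted p of 0.219, and the change was too small for a call. That coding row, F13a1, a coagulation factor subunit also made by macrophages, had a log2 fold change of -0.52 ± 0.16 (SE).

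The row AABR07065531;Mir770;Mir673, at chr6:133658906-133696964 on the plus strand, had an FPKM of 50.4, 39.7 and 60.1 in CCI 1, 2 and 3 and 44.0, 28.6 and 28.9 in sham 1, 2 and 3. Sham 1 lay above CCI 2, so the groups overlapped. The log2 fold change was 0.55 ± 0.21 (SE, edgeR quasi-likelihood adjusted p of 0.426), just under the size for a call. It was 0.69 without CCI 2 and 0.78 without sham 1, and in both cases the row was called. Without CCI 1 (0.54), CCI 3 (0.40), sham 2 (0.45) or sham 3 (0.45) the unadjusted p was no longer under 0.05. The nearest protein-coding row, 10.1 kb away, was AABR07065531;Mir3543, with 0.06 ± 0.11 (SE), and Dlk1, 75.2 kb away, was nearly silent, with a mean FPKM of 0.0249. Of 8 lncRNA genes of imprinted domains 0 were found by symbol, and of the 5 tested of 9 coding genes of such domains 0 were called and the median log2 fold change was 0.08. The 8 of these coding genes found, tested or not, had summed levels of 595, 613 and 623 CPM in CCI rats and 580, 622 and 608 CPM in sham rats, with Gnas the most abundant.

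**Figure D1:**
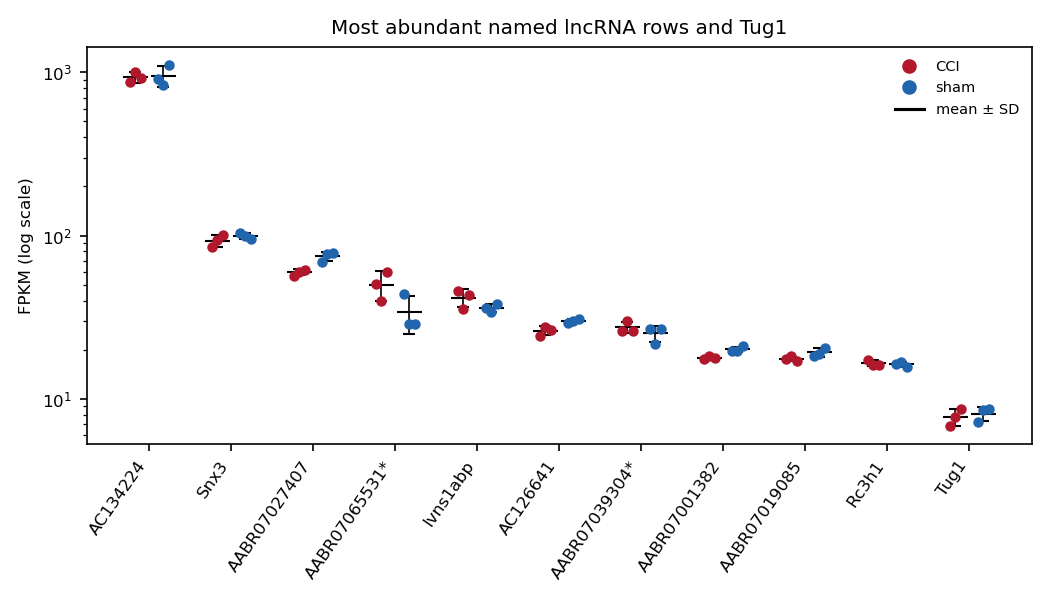
FPKM of the 10 most abundant named non-coding rows and of Tug1 on a log scale, with 1 point per library, red for CCI and blue for sham, and the mean ± SD of each group (n = 3); an asterisk marks rows that join several symbols. AC134224 stood far above the others, and AABR07027407 is a row whose CCI and sham points do not overlap.

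Of a list of 85 well known lncRNA symbols, 5 were found in the table and Tug1 alone was a member. Tug1, a conserved nuclear and cytoplasmic lncRNA whose row on the minus strand overlaps the start of Morc2 on the plus strand, had an FPKM of 6.83, 7.72 and 8.62 in CCI rats and 7.20, 8.49 and 8.70 in sham rats. The groups overlapped, with a log2 fold change of -0.09 ± 0.11 (SE). Rpph1, the RNA of ribonuclease P, Terc, the telomerase RNA, and Snhg11 were tested as rows of other types, with log2 fold changes of 0.13 ± 0.10, 0.60 ± 0.40 and -0.27 ± 0.13 (SE), and Dlx6os1 had no count. Calls among the 4 tested numbered 0, their median log2 fold change was 0.02, and summed levels were 1159, 1074 and 1139 CPM in CCI rats and 977, 1070 and 1198 CPM in sham rats, mostly Rpph1. Of 18 snoRNA host genes only Snhg11 was found by symbol, at 163, 162 and 154 CPM in CCI rats and 159, 229 and 188 CPM in sham rats. Kantr, a lncRNA named for its neighbour Kdm5c, had a log2 fold change of -0.17 ± 0.25 (SE), and LOC102549726;Snord52, which hosts a small nucleolar RNA, had 0.49 ± 0.23 (SE). Neither was called.

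The question asked of the 339 rows was which differed between tied and untied nerves. Calling a row where edgeR's quasi-likelihood F-test gave an unadjusted p below 0.05 and the log2 fold change reached 0.58 in either direction, 13 (3.83%) were higher in CCI rats, against 2.57% of all rows tested, and 3 (0.885%) were lower, against 1.26%. These shares are near those of all rows and are not read as particular to the members. With each library left out, from 10 to 18 members were called higher and from 1 to 10 lower. After Benjamini-Hochberg adjustment over all rows, edgeR's test left 0 of the 339 at an adjusted p under 0.05, where 0.0938% of all rows passed. The lowest edgeR quasi-likelihood adjusted p of a member was 0.0789. Irrespective of size, 35 members (10.3%) had an unadjusted p under 0.05, against 10.7% of all rows. DESeq2, with its own adjusted p under 0.05, called 6 members higher, against 1.63% of all rows, and 4 lower, against 1.20%. The median log2 fold change was 0.02 over the members and 0.01 over all rows. In these whole ganglia fewer cells of a type and less RNA per cell cannot be told apart.

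AABR07044837, a lincRNA row at chr20:23073501-23087864 on the plus strand, had 15.7, 5.05 and 5.80 CPM in CCI 1, 2 and 3 and 0.365, 0.517 and 0.690 CPM in sham 1, 2 and 3. The lowest CCI library was far above the highest sham library, and CCI 1 was the highest of all. The log2 fold change was 4.07 ± 0.55 (SE, edgeR quasi-likelihood adjusted p of 0.0789). This was the largest fitted change among the called rows whose groups did not overlap, and without CCI 1 it was 3.37. With 1 library left out, the edgeR quasi-likelihood adjusted p was 0.0329 without CCI 1 and from 0.114 to 0.259 without each of the other 5. Its nearest protein-coding rows, Reep3, 74.4 kb away, and Jmjd1c, a histone demethylase gene, had log2 fold changes of 0.12 ± 0.10 and 0.18 ± 0.07 (SE) and were not called.

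AABR07005593, at chr1:189688872-189703841 on the minus strand, had 3.96, 2.38 and 1.67 CPM in CCI rats and 0.467, 0.543 and 0.654 CPM in sham rats. The groups were well apart, with a log2 fold change of 2.26 ± 0.37 (SE, edgeR quasi-likelihood adjusted p of 0.109). Lyrm1, 2.23 kb away, stood at 0.05 ± 0.14 (SE) and was not called. AABR07070704, at chr8:80923232-80925408, had 18, 84 and 114 counts in CCI rats and 8, 7 and 0 counts in sham rats. CCI 1 was near the sham libraries, which were near the detection limit, and the log2 fold change of 3.91 ± 1.10 (SE, edgeR quasi-likelihood adjusted p of 0.287) is correspondingly loose. Its nearest protein-coding row, Wdr72, was under the FPKM limit.

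AABR07060862, a lincRNA row at chr4:97829341-97833460 on the plus strand, had 3.33, 2.22 and 2.76 CPM in CCI rats and 0.969, 1.29 and 1.16 CPM in sham rats. Every CCI library was above every sham library, with a log2 fold change of 1.28 ± 0.23 (SE, edgeR quasi-likelihood adjusted p of 0.132). Its nearest protein-coding row was Gadd45a, a stress and DNA damage response gene of injured neurons, 44.5 kb away. Gadd45a had 31.6, 45.1 and 44.8 CPM in CCI rats and 7.61, 6.85 and 16.6 CPM in sham rats, and was called with a log2 fold change of 1.97 ± 0.37 (SE). The highest CCI library differed between the neighbours, CCI 1 for AABR07060862 and CCI 2 for Gadd45a. Of the 5 rows tested within 250 kb these 2 were called, and Gng12, Serbp1 and Il12rb2 had log2 fold changes of 0.15, 0.00 and 0.25.

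LOC102549714, at chr7:60282326-60283912 on the plus strand, had 8.00, 7.84 and 6.82 CPM in CCI rats and 3.62, 3.61 and 4.87 CPM in sham rats. The groups did not overlap, and the log2 fold change was 0.91 ± 0.17 (SE, edgeR quasi-likelihood adjusted p of 0.142). The row lies 3.62 kb from Yeats4, a subunit of chromatin complexes, which had a log2 fold change of 0.11 ± 0.17 (SE) and was not called. On the far side of Yeats4 lie the lysozyme genes Lyc2, 32.1 kb away, and Lyz2, 52.1 kb away, the latter a product of macrophages. Lyz2 had 317, 213 and 233 CPM in CCI rats and 141, 119 and 126 CPM in sham rats. Both lysozyme genes were called, with log2 fold changes of 0.89 ± 0.25 for Lyc2 and 0.98 ± 0.16 for Lyz2 (SE). Of 9 rows tested within 250 kb, 3 were called higher and Frs2, an FGF receptor adaptor gene at 1070, 1106 and 1166 counts in CCI rats and 5784, 1483 and 5294 counts in sham rats, was called lower.

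**Figure D2:**
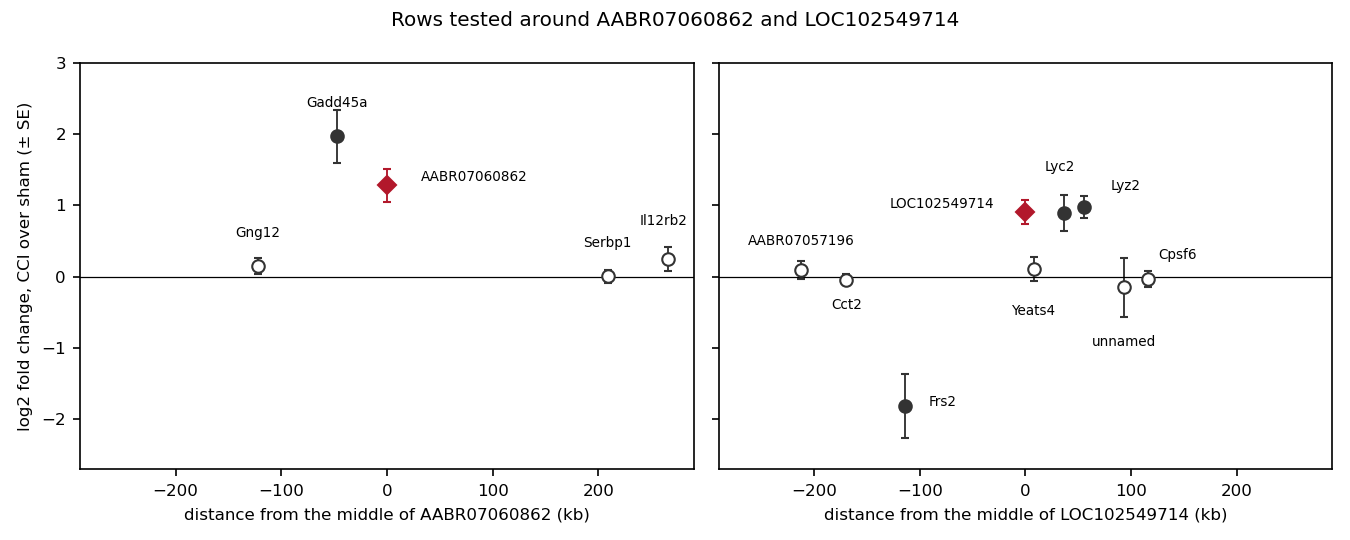
Log2 fold change ± SE of every row tested within 250 kb of AABR07060862 and of LOC102549714 (red diamonds) against distance in kb, with filled symbols for called rows. Gadd45a rose beside AABR07060862, and Lyc2 and Lyz2 rose beside LOC102549714 while Yeats4, between them, stayed near 0.

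AABR07007055, at chr1:278476630-278480945 on the minus strand, had 21.4, 15.3 and 12.2 CPM in CCI rats and 8.24, 8.25 and 9.36 CPM in sham rats. CCI 1 was highest, no CCI library overlapped the sham range, and the log2 fold change was 0.92 ± 0.21 (SE, edgeR quasi-likelihood adjusted p of 0.210). Trub1, 58.3 kb away, had a log2 fold change of -0.05 ± 0.13 (SE). AABR07011682, at chr2:165917470-165931558, had 0.678, 0.968 and 1.18 CPM in CCI rats and 0.490, 0.391 and 0.460 CPM in sham rats. The groups did not overlap, with a log2 fold change of 1.07 ± 0.32 (SE, edgeR quasi-likelihood adjusted p of 0.314). It starts 47 bases from the start of Ppm1l on the opposite strand, a phosphatase gene on which far more counts fell and whose log2 fold change was -0.04 ± 0.05 (SE). The lincRNA row thus rose beside a coding gene that was not called.

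These 7 rows, AABR07044837, AABR07070704, AABR07005593, AABR07060862, AABR07011682, AABR07007055 and LOC102549714, kept their call when any 1 library was left out. With limma on log2(FPKM + 1), AABR07060862 (log2 fold change 0.43) and AABR07011682 (0.57) of these were no longer called. The other 9 called rows lost it without at least 1 library. Except for AABR07012728 and for AABR07005794 without CCI 2, whose change became too small, the unadjusted p was then no longer under 0.05.

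The row Mir223;AABR07038983, at chrX:65367812-65368639 on the plus strand, had 87, 65 and 76 counts in CCI rats and 56, 28 and 40 counts in sham rats. Mir223 is a miRNA gene of the myeloid lineage, and the row spans 828 bases, so that it holds primary transcript and not the mature miRNA. The log2 fold change was 0.96 ± 0.32 (SE, edgeR quasi-likelihood adjusted p of 0.366), and the groups did not overlap. The call was lost without CCI 1 (log2 fold change 0.87), CCI 3 (0.93), sham 2 (0.77) or sham 3 (0.95). Vsig4, a receptor gene of resident macrophages 2.21 kb away, was under the FPKM limit with 28, 0 and 4 counts against 14, 22 and 13. Vsig4 was not tested, so the row and its coding neighbour are not compared.

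AABR07033564, at chr11:27598719-27611811, had 19.2, 18.6 and 16.4 CPM in CCI rats and 9.65, 5.68 and 14.4 CPM in sham rats. Sham 3 came near the CCI libraries, and the log2 fold change of 0.86 ± 0.31 (SE, edgeR quasi-likelihood adjusted p of 0.399) lost its call without CCI 1 (0.82), CCI 2 (0.85) or sham 1 (0.84). AABR07016578, at chr14:105138086-105141787, had 54, 42 and 38 counts in CCI rats and 26, 24 and 18 counts in sham rats. Its log2 fold change of 1.04 ± 0.35 (SE, edgeR quasi-likelihood adjusted p of 0.364) lost its call without CCI 1 (0.90) or sham 3 (0.91), though the groups did not overlap. Its nearest tested coding row, Lgalsl, 82.7 kb away, had 0.01 ± 0.42 (SE). Bach1 and Grik1, the coding neighbours of AABR07033564, lie 200 kb away on either side and were not called.

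A further 3 raised rows fell outside the rule for named rows and were chosen after their values were seen. AC132057, at chr19:56230678-56231147 on the plus strand, had 2.30, 1.94 and 1.62 CPM in CCI rats and 1.29, 1.14 and 1.43 CPM in sham rats. CCI and sham ranges were apart, with a log2 fold change of 0.60 ± 0.22 (SE, edgeR quasi-likelihood adjusted p of 0.394). It starts 865 bases from Tubb3, the neuronal tubulin gene on the same strand, which had a log2 fold change of 0.31 ± 0.08 (SE), and Def8, 7.23 kb away, had 0.41 ± 0.07 (SE). Neither neighbour reached 0.58, and AC132057 lost its call without CCI 1 (log2 fold change 0.47), CCI 2 (0.61), sham 1 (0.61) or sham 2 (0.52). AABR07008568, at chr2:65010320-65011966, had 4.87, 5.92 and 4.19 CPM in CCI rats and 3.89, 3.62 and 2.41 CPM in sham rats. The groups did not overlap, with a log2 fold change of 0.59 ± 0.23 (SE, edgeR quasi-likelihood adjusted p of 0.440). It lies in a stretch without a coding row for 1588 kb, and its call was lost without CCI 1 (log2 fold change 0.61), CCI 2 (0.46), sham 2 (0.67) or sham 3 (0.41). AABR07010620, at chr2:144173295-144178776 inside the span of the joined row Rfxap;Rfxapl1, had 468, 532 and 0 counts in CCI rats and 0, 0 and 0 counts in sham rats. Since CCI 3 was at 0 like all sham libraries the groups overlapped, the call was lost without CCI 2, and no fold is given.

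The 3 rows called lower were AABR07012728, AABR07005794 and LOC103692984. AABR07012728, at chr2:204033548-204048861 on the plus strand, had 6.41, 9.72 and 9.56 CPM in CCI rats and 12.6, 14.8 and 14.5 CPM in sham rats, a log2 fold change of -0.70 ± 0.18 (SE, edgeR quasi-likelihood adjusted p of 0.252). All CCI libraries lay below all sham libraries, and without CCI 1 the change of -0.53 was too small for a call.

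AABR07005794, at chr1:200344671-200373126, had 5.29, 3.64 and 6.49 CPM in CCI rats and 8.91, 7.27 and 7.92 CPM in sham rats. Its log2 fold change of -0.64 ± 0.23 (SE, edgeR quasi-likelihood adjusted p of 0.383) lost the call without CCI 1 (-0.67), CCI 2 (-0.45), sham 1 (-0.56) or sham 3 (-0.65), though the groups did not overlap. The nearest coding row, Sec23ip, is 134 kb away and had 0.05 ± 0.07 (SE). LOC103692984, an antisense row at chr7:142860537-142870300 on the minus strand, had 102, 108 and 80 counts in CCI rats and 155, 136 and 174 counts in sham rats. All CCI libraries lay lower, with a log2 fold change of -0.61 ± 0.20 (SE, edgeR quasi-likelihood adjusted p of 0.357). It overlaps Acvr1b, an activin receptor gene, and Grasp, with log2 fold changes of -0.14 ± 0.06 and 0.00 ± 0.15 (SE). Its call was lost without CCI 3 (log2 fold change -0.52) or sham 3 (-0.52), and since the use of strand in counting is not stated, counts of overlapping rows cannot be told apart.

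**Figure D3:**
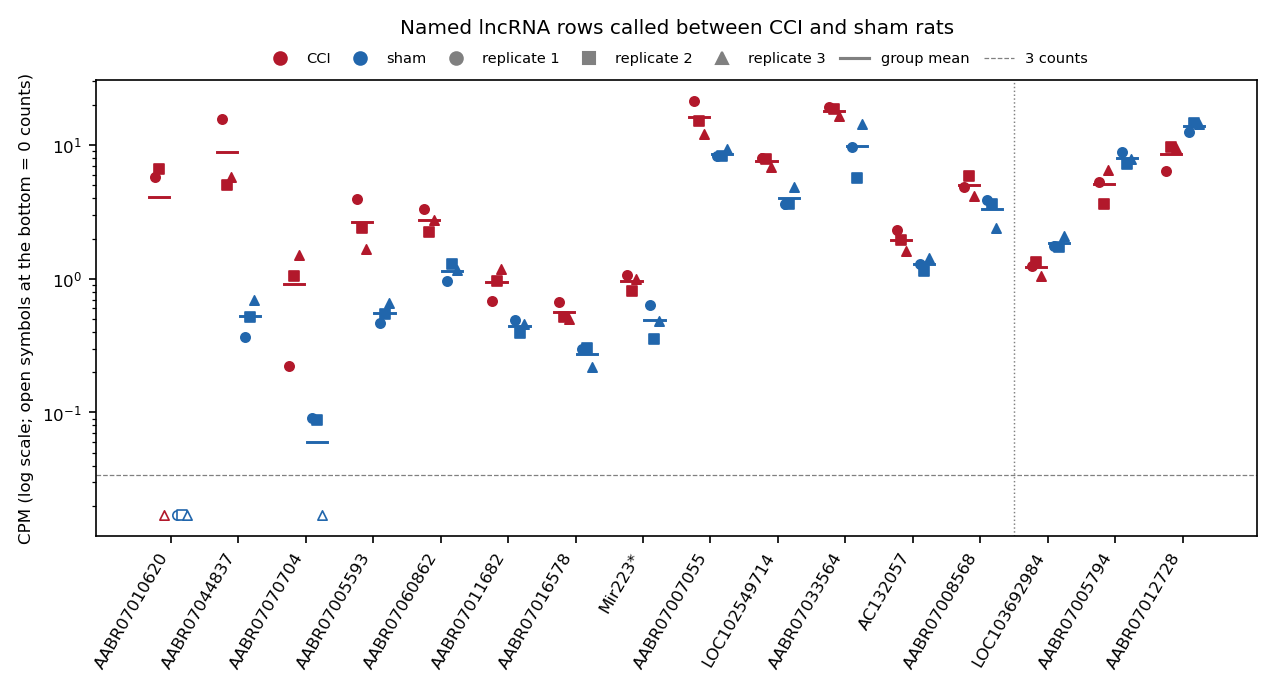
CPM on a log scale of the 16 called rows in each library, red for CCI and blue for sham, with symbols for replicate numbers, bars for group means, open symbols for 0 counts and a dashed line at 3 counts. The 13 rows left of the dotted line were higher in CCI rats, with AABR07044837 the farthest apart without a library at 0, and the 3 to its right were lower.

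By type, 13 of 256 lincRNA rows (5.08%) were called higher and 2 (0.781%) lower, 0 of 26 antisense rows higher and 1 (3.85%) lower, and 0 of 57 processed transcripts in either direction, beside 2.57% higher and 1.26% lower of all rows. In edgeR's quasi-likelihood test 27 (10.5%), 2 (7.69%) and 6 (10.5%) rows of these types had an unadjusted p under 0.05, against 10.7% of all rows and 13.8% of protein-coding rows, and differences between the types were not tested. DESeq2's 10 calls among the members, made at its adjusted p without a limit on size, included AABR07027407 and 2 joined rows. The joined rows were AABR07060487;AABR07060473;AABR07060481 and AABR07057765;AABR07057798. AABR07027407 and the joined rows fell short of the size for a call by edgeR. None of them had an edgeR quasi-likelihood adjusted p under 0.05 either. The standard deviation of the log2 fold change was 0.94 over lincRNA rows, 0.42 over antisense rows and 0.25 over processed transcripts, beside 0.50 over protein-coding rows and 0.71 over all rows. The lincRNA and all-row values include AABR07010620, whose fitted change rests on 0 counts in every sham library and weighs heavily in an SD. The value without it was not computed. The lower and upper quartiles, on which 1 row has little effect, were -0.18 and 0.32 for lincRNA and -0.26 and 0.26 for antisense rows. They were -0.13 and 0.16 for processed transcripts, -0.11 and 0.11 for protein-coding rows and -0.14 and 0.17 for all rows. The median spread between rats of a group, as a pooled SD of log2(CPM + 0.1), was 0.28 for lincRNA, 0.32 for antisense and 0.15 for processed transcripts, beside 0.13 for protein-coding rows. Median FPKM was 1.39 for lincRNA, 1.01 for antisense and 3.81 for processed transcripts, so level and spread differ between the types as well.

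The 19 members with an unadjusted p under 0.05 but a smaller change comprised 15 lower and 4 higher rows, beside 1046 lower and 798 higher among the 1844 such rows of all those tested. Whether the members differ from all rows in this was not tested. AABR07057765;AABR07057798, described as the large synaptic gene Csmd3 and named after its values were seen, had a log2 fold change of -0.54 ± 0.08 (SE). Its adjusted p was 0.0973 in edgeR's quasi-likelihood test and 5.14e-05 in DESeq2. AABR07061839, an antisense row within Marchf8, had 634, 640 and 589 counts in CCI rats and 469, 491 and 488 counts in sham rats, also chosen after the values were seen. The groups did not overlap, with a log2 fold change of 0.43 ± 0.11 (SE, edgeR quasi-likelihood adjusted p of 0.263), while Marchf8 itself had 0.00 ± 0.06 (SE). Grm4, a processed transcript of a metabotropic glutamate receptor gene, had a log2 fold change of -0.50 ± 0.15 (SE), Itgb5, of an integrin gene, had -0.24 ± 0.08 (SE), and Cep128, of a centrosomal protein gene, had 0.35 ± 0.13 (SE). Over the 29 rows with a protein-coding symbol the log2 fold change ran from -0.50 to 0.84 with a median of 0.02, and 0 were called, with 3 (10.3%) at an edgeR unadjusted p under 0.05, against 10.7% of all rows, and 0 at a DESeq2 adjusted p under 0.05. At the 2.57% and 1.26% called of all rows, a count of 0 among 29 does not set these rows apart.

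**Figure D4:**
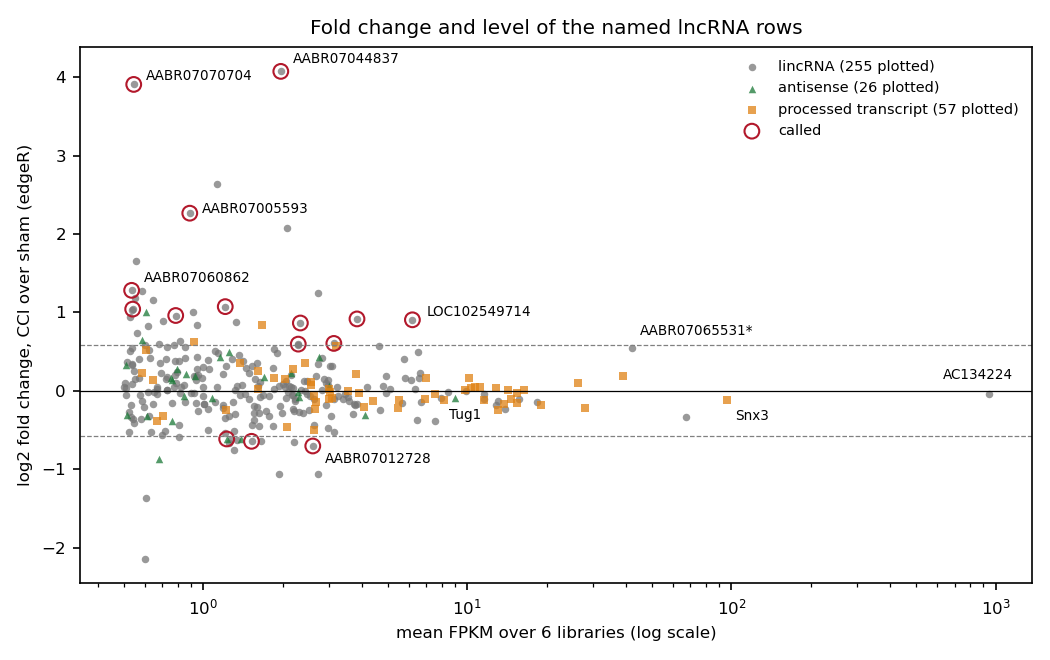
Log2 fold change, CCI over sham, against mean FPKM (log scale) for 338 of the 339 named non-coding rows, without AABR07010620, by type, with red rings around called rows and dashed lines at 0.58 in both directions. Called rows had a mean FPKM under 10 and were lincRNA rows in all cases but LOC103692984, while AC134224, Snx3 and Tug1 lay near 0.

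Position was examined for every member. Of the 339, 76 overlapped a named protein-coding row, 50 of them on the opposite strand and 26 on the same strand. Another 70 lay within 5 kb of such a row and 82 lay over 50 kb away, with a median distance of 10.3 kb. For 264 members the nearest protein-coding row was itself tested, and 8 of these rows (3.03%) were called higher and 1 (0.379%) lower, against 2.38% and 0.878% of all rows of protein-coding type. Of the 16 called members, 13 had a nearest protein-coding row that was tested, and in 1 case, AABR07060862 with Gadd45a, it was called too, in the same direction. Whether this differs from the share of all coding rows was not tested.

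Some members differed strongly between rats of the same group. In 27 of the 339 (7.96%) the pooled SD of log2(CPM + 0.1) within groups exceeded 1, against 4.26% of all rows tested. These rows were set apart after the values were seen and get no test. They comprised 25 lincRNA rows, 1 antisense row and 1 processed transcript, and 11 were described as similar to another gene, as were 34 of all members. In 15 of them at least 1 library held 3 counts or fewer, in 25 the groups overlapped, and 1, AABR07010620, was called.

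LOC102550026, an uncharacterised lincRNA row at chr5:51148371-51212381, had 1138, 1331 and 1401 counts in CCI rats and 0, 919 and 0 counts in sham rats. It was thus high in 4 libraries and at 0 in 2, with nothing in between. AABR07052529, at chr3:60245440-60257564, had 1140, 1132 and 985 counts in CCI rats and 1341, 6 and 1070 counts in sham rats, so that sham 2 alone was low. LOC100910284, described as like the matrix proteoglycan brevican, had 226, 409 and 0 counts against 333, 411 and 617, with CCI 3 alone at 0. RGD1563270, described as similar to a synaptonemal complex protein, had 0, 218 and 0 counts against 0, 0 and 197. The libraries that were high or at 0 differed from row to row.

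LOC102555534, described as like the sorting protein gene Vps13b, had 542, 486 and 0 counts in CCI rats and 15, 481 and 8 counts in sham rats. Its nearest coding row, Zfp706, 42.8 kb away, varied little, at 6179, 5961 and 5702 counts against 6569, 6415 and 6304. AABR07065448, described as like the helicase gene Ddx24, had 46, 1193 and 1133 counts against 424, 0 and 0. Serpina10, a protease inhibitor gene 2.36 kb away, had 4, 351 and 331 counts against 408, 6 and 26. The same 3 libraries, CCI 2, CCI 3 and sham 1, were thus high in both neighbours. LOC103689920 had 955, 930 and 261 counts against 991, 783 and 26, and the Trappc2b row 3.81 kb away had 466, 548 and 534 counts against 600, 582 and 0, so that sham 3 was lowest in both. Of the 27 rows, 19 had a nearest coding row that was tested, and in 3 cases that row also had a pooled SD above 1. LOC100911851, described as like intersectin 1 and 21.0 kb from the called row AABR07033564, had 77, 799 and 62 counts against 717, 71 and 612, a different order of libraries from its called neighbour.

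**Figure D5:**
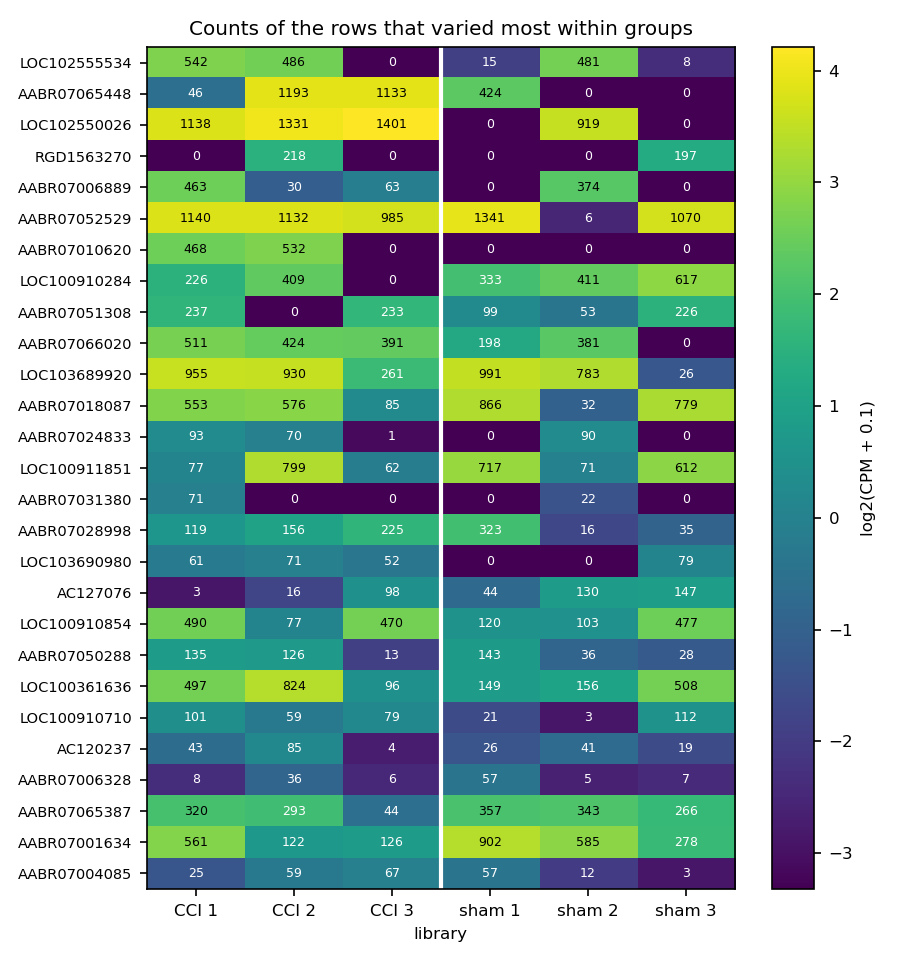
Counts (printed) and log2(CPM + 0.1) (colour) in the 6 libraries for the 27 named non-coding rows with a pooled within-group SD above 1, ordered by that SD, with a white line between CCI and sham. Several rows range from high counts to 0 among rats of a group, in different libraries for different rows.

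Several marker lists moved with the comparison in which the rows were called, and their part in it was not tested. The injured neuron and macrophage lists hold many genes that the paper had reported as upregulated in these same libraries. Among them are Atf3, Gal, Npy, Gadd45a, Cd68, Csf1r and Cx3cr1. The numbers called from those lists were thus largely set by the choice of genes and are no separate evidence of a response. All 12 injured neuron genes were called higher, their median log2 fold change was 3.66, and they had summed levels of 898, 634 and 549 CPM in CCI rats and 217, 224 and 220 CPM in sham rats. Gap43, a growth cone protein gene, was the most abundant of them, and Atf3, a stress transcription factor gene, had 117, 67.4 and 53.8 CPM against 6.32, 8.00 and 7.18. Among macrophage genes 10 of 11 were called higher, all but Aif1, with a median of 1.06 and sums of 291, 261 and 198 CPM against 113, 103 and 126, of which Cd74 was the most abundant. CCI 1 had the highest sum in both lists. Of 10 skeletal muscle genes 7 were called lower and 0 higher, with a median of -3.12 and sums of 65.3, 62.8 and 54.8 CPM against 512, 75.1 and 124, so that sham 1 stood apart. Pvalb, which sensory neurons also express, was the most abundant of these in all libraries but sham 1, where Myh4 was higher. No gene of these 3 lists was at 0 in every library.

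The other cell types showed fewer calls. Of 10 sensory neuron genes 0 were called, with a median of -0.14 and sums of 9002, 9208 and 9070 CPM in CCI rats and 8895, 10144 and 9975 CPM in sham rats. Over all libraries Nefh was the most abundant of them, with a log2 fold change of -0.54 ± 0.08 (SE), while Tubb3, at 0.31 ± 0.08 (SE), was higher than Nefh in each CCI library. Of 5 Schwann cell genes 0 were called, with a median of -0.15 and sums of 6289, 6941 and 8666 CPM against 8776, 8030 and 7789. Of 6 satellite glia genes 1, Hes5, was lower, with a median of -0.08 and sums of 2185, 2269 and 2188 CPM against 2071, 2183 and 2062, led by Apoe. Of 3 erythrocyte genes 2 were tested and not called, with a median of -0.32 and sums of 23.9, 18.5 and 29.6 CPM against 49.1, 27.8 and 24.9, led by Hbb. None of the 7 T and B cell genes or the 4 adipocyte genes passed the FPKM limit. Their sums were 1.38, 1.24 and 1.03 CPM against 1.52, 1.77 and 1.22, with Cd79a the most abundant by its sum over the libraries, and 2.38, 1.03 and 1.68 CPM against 1.63, 0.606 and 0.0969, with Lep at 0 in every library. Among the adipocyte genes Cidec was the most abundant over all libraries, at 1.93, 0.832 and 0.578 CPM against 0.0912, 0.101 and 0.0969, but in CCI 3, sham 1 and sham 2 Plin1 was higher than Cidec.

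Proteins that bind or degrade nuclear non-coding RNA were examined as the machinery around the rows. Of 25 lncRNA-binding protein genes, such as the paraspeckle proteins Nono and Sfpq and the Polycomb subunits Ezh2 and Suz12, 0 were called, and their median log2 fold change was 0.02. Ezh2 had 14.9, 9.12 and 11.5 CPM in CCI rats and 7.74, 8.59 and 7.57 CPM in sham rats, without overlap, and its log2 fold change of 0.57 ± 0.19 (SE) was just under the size for a call. The list's summed levels were 1986, 1959 and 1964 CPM in CCI rats and 1983, 1987 and 1835 CPM in sham rats, led by Hnrnpk. Of 21 genes of the exosome and nuclear RNA decay found of 22 listed, 0 were called, with a median of 0.01 and sums of 822, 838 and 845 CPM against 841, 808 and 825, led by Smg1, which is itself a member by its annotated type.

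Annotated rows under the FPKM limit were tested in a fit of all rows with a count. Of 1261 such rows 17 (1.35%) were called higher, against 2.5394% of all rows in that fit, and 17 (1.35%) lower, against 1.3004%. AABR07050134, a lincRNA row at chr5:153011552-153015464 chosen after its values were seen, had 0, 0 and 0 counts in CCI rats and 77, 84 and 70 counts in sham rats. The row was thus at 0 counts in all CCI rats and detected in all sham rats. Its adjusted p was 0.0644 in edgeR's quasi-likelihood test without the filter. AABR07027870, at chr17:47710212-47713383, had 0, 0 and 6 counts against 59, 194 and 156. The protein-coding row that carries the same symbol, 8.59 kb away, had 6481, 5966 and 7391 counts against 10143, 8909 and 9574, a log2 fold change of -0.45 ± 0.10 (SE).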

How the data were processed

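The authors mapped reads with HISAT2 2.0 and assembled them with StringTie 1.3.0, according to the submitters' processing notes, to a rat genome they call V101. The deposited count values are whole reads per row without normalization, and the deposited FPKM values were made by the authors. The libraries mark strand, but its use in counting is not stated. Samples were grouped by surgery as labelled, and 0 numeric columns were left unused. Rows averaging 0.5 FPKM or more, 26663 in number, were fitted with edgeR 4.0.16 (quasi-likelihood, TMM factors, trended prior) and adjusted by Benjamini-Hochberg over all of them, and only the 339 members are reported. CPM used TMM-scaled library sizes, and SE of a log2 fold change was derived from the test statistic. Alternatives used limma 3.58.1, DESeq2 1.42.0, RLE factors, other filters, a replicate block and each library left out. R 4.3.3, data.table (version 1.17.8), Python 3.11.15, pandas 2.3.3, numpy 2.4.6, scipy 1.17.1 and matplotlib 3.10.9 were used, and fits were tested on simulated data.

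Named rows were the 10 largest increases and 10 largest decreases by fitted change among called members whose groups do not overlap and whose higher group has more than 3 counts in every library (10 and 3 were taken), members at an adjusted p under 0.05, the 10 with the highest mean FPKM, members of the known lncRNA list, and the nearest protein-coding row of the called ones. The lists were known lncRNA, snoRNA hosts, imprinted domain lncRNA and coding genes, lncRNA-binding proteins, nuclear RNA decay, and markers of injured neurons, macrophages, skeletal muscle, Schwann cells, satellite glia, sensory neurons, T and B cells, adipocytes and erythrocytes. Members and lists were chosen with earlier results of these data known. For a list gene with several rows, preference went to protein-coding type, next to a lone symbol and last to the highest count. Tests measure the spread between these rats, and the detection limit of 3 counts covers counting alone.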

Additional observations from a re-analysis of the deposited data

How the results depend on the processing

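Rows called higher numbered 13, and 7 with a mean FPKM of at least 1, 7 with limma on log2(FPKM + 1) and 30 without an FPKM filter, and from 10 to 18 with each library left out. Rows called lower numbered 3, and 1 with limma on log2(FPKM + 1), 20 without the filter and from 1 to 10 with each library left out. At an adjusted p under 0.05 there were 0 higher and 0 lower rows, 6 and 4 with DESeq2 and, with each library left out, from 0 to 1 higher and 0 lower. Without a filter more rows were counted, and with a mean FPKM of at least 1 the 6 lost were rows under that level. For the others the cause was not tested. Of the 16 called, limma on log2(FPKM + 0.1) lost AABR07010620, AABR07016578 and LOC103692984, and limma on log2(FPKM + 1) kept AABR07044837, AABR07070704, AABR07005593, AABR07007055, LOC102549714 and AABR07033564. The difference in share of counts, CCI minus sham, was 0.0101 percentage points, -0.0111 as a share of summed FPKM, and from -0.0501 to 0.0668 with each library left out. The log2 fold change of AC134224 was -0.12 without sham 2 and turned to 0.01 without CCI 1 and to 0.09 without sham 3, and that of Rc3h1 turned to -0.02 and -0.01 without these 2 libraries. Counts without rows that carry a protein-coding symbol, chosen after seeing the data, were 13 and 3. A replicate block gave 13 higher and 4 lower rows, of which 14 were among the 16 called, AC132057 and LOC103692984 being lost with an unadjusted p no longer under 0.05. Same-numbered samples did not deviate together (correlations of -0.0605 to -0.0117 across genes), and no sample correlated best with its own number. With 3 rats per group these values cannot tell whether same-numbered samples shared a day or batch.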
